A study of Mus musculus with 44 samples.

Results

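The 10 genes described here encode proteins that carry dopamine and cAMP signals in striatal projection neurons: Ppp1r1b, Gnal, Adcy5, Rgs9, Pde10a, Pde1b, Gng7, Arpp21, Rasd2 and Rasgrp2. They were taken as a fixed list of gene symbols, matched to Ensembl mouse identifiers, and all 10 were found among the 55487 genes of each of the study's 2 count tables. All 10 passed the filter on low counts in both tables. The study used viral infusion into the mouse nucleus accumbens to overexpress RXRa, the alpha form of the retinoid X receptor, which binds DNA in pairs with other nuclear receptors. In bulk accumbens tissue of males, 4 libraries had received HSV-GFP, a herpes simplex vector, and 4 had received HSV-RXRa-GFP. In sorted nuclei, the vectors were AAV9-CAG-DIO-EGFP and AAV9-CAG-DIO-EGFP-P2A-RXRa, which are switched on by Cre recombinase and driven by the general CAG promoter. The nuclei came from the populations labelled D1 and D2, the projection neurons that carry the dopamine receptor Drd1 or Drd2, of females and males. With EGFP there were 5 D1 female, 5 D1 male, 4 D2 female and 5 D2 male libraries, and with RXRa there were 4 libraries in each of these groups. The Cre driver lines, the strain, the ages and the time after infusion are not given in the sources used here. The labels do not say that each library came from a separate animal, so the p-values measure the spread between libraries.

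In projection neurons that carry Drd1, dopamine acts through that receptor on a G protein. This protein contains the alpha subunit made by Gnal and the gamma subunit made by Gng7. That G protein drives adenylyl cyclase type 5, the product of Adcy5, which makes cAMP. Pde10a and Pde1b encode phosphodiesterases that break cyclic nucleotides down, and Ppp1r1b encodes DARPP-32, which inhibits protein phosphatase 1 once protein kinase A has phosphorylated it. Arpp21 encodes another phosphoprotein of the same pathway, and Rgs9 encodes a protein that speeds the shut-off of inhibitory G proteins. Rasd2 encodes Rhes, a small G protein rich in striatum, and Rasgrp2 encodes an exchange factor that activates Rap.

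Upstream sequence is shown for 4 of the 10 genes, because the genes moved together in the sorted nuclei and because RXRa acts by binding DNA. RefSeq gave windows for 8 of the 10 genes, 21 in all on GRCm38.p6, and the 250 bases before each annotated start were read. The 4 printed, of Adcy5, Rgs9, Rasd2 and the first start of Pde1b, are among the 7 windows that hold no exon of their own gene. Capitals mark the GC box GGGCGG, read on either strand.
Adcy5 chr16:35154614-35154863 (+ strand): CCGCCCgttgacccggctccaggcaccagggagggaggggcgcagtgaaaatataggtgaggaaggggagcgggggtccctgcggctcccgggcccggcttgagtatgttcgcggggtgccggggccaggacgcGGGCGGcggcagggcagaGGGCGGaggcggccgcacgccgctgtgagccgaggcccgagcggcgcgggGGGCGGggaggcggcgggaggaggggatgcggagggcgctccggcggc
Rgs9 chr11:109298182-109298431 (- strand): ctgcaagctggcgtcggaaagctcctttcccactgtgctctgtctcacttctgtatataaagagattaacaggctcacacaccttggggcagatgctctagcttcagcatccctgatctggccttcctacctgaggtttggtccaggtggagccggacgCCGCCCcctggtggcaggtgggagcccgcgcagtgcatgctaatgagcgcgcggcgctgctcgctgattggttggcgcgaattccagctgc
Pde1b chr15:103502784-103503033 (+ strand): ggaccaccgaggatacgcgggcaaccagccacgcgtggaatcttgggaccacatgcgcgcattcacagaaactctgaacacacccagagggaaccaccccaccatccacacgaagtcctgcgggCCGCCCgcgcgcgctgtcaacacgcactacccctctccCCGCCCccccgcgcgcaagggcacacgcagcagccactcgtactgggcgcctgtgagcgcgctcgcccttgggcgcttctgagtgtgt
Rasd2 chr8:75213694-75213943 (+ strand): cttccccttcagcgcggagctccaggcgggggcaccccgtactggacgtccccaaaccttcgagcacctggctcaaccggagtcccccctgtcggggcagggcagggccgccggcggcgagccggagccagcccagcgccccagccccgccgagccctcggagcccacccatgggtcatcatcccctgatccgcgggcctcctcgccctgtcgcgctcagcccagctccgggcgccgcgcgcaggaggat
The exact letters AGGTCA, a half-site of RXR and its partners, occurred on neither strand of any of the 21 windows, and 14.0% of all 32851 windows held them. Half-sites that differ from these letters were not searched for, so the windows may hold such sites. Arpp21 gave several of the 21 windows, some of which overlap, so the 21 are not separate stretches. The direct repeat AGGTCANAGGTCA, also read on both strands and containing the half-site, occurred in 0.0335% of all windows and in none of the 21. The full cAMP response element TGACGTCA was likewise in none of the 21 and in 1.55% of all windows. The shorter TGACG, which is part of that element, was in 3 of the 21 windows, 2 of Arpp21 and 1 of Gng7, and in 17.8% of all windows. The GC box was in 7 of the 21 windows and in 32.7% of all windows. Gng7 and Rasgrp2, not printed, each had a window with 5 GC boxes. Among the windows printed, Adcy5 held 4 GC boxes, Pde1b 2, Rgs9 1 and Rasd2 none. The guanine and cytosine content was 78.0% in the Adcy5 window and 59.6% in the Rgs9 window, and the median of all windows was 52.4%. A match or its absence describes only the letters of these windows.

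Library depth was 21567565 to 29167142 counts in bulk and 12211655 to 27757463 counts in the sorted nuclei. Drd1 and Drd2 separated the sorted populations: under EGFP, Drd2 was at 519 to 927 CPM (library-scaled counts, with edgeR's TMM scaling) in D2 libraries and at 48.9 to 71.1 CPM in D1 libraries, and Drd1 at 6.48 to 16.5 CPM in D2 and 30.6 to 77.1 CPM in D1. The sorted table also held counts over genes with no count in any bulk library. Over 1576 such protein-coding genes, the logarithm of the count rose with that of gene-body length with a slope of 0.94, and with that of exonic length with a slope of 0.094. Their median, in CPM per kb of gene body and called silent-gene density here, ran from 0.303 to 0.596 over the 35 libraries. Spread evenly over all gene bodies, such a background would make up between 37.0% and 72.7% of the counts. This measure was chosen with earlier results of these data known, and it is set beside the sorted results below.

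In bulk tissue, where RNA is polyadenylated, levels were compared per kb of exon. Ppp1r1b was highest of the 10 genes at 389.5 ± 35.1 CPM per kb (SD, n = 8 libraries of both vectors), followed by Gng7 at 273.6 ± 32.7 CPM per kb. Adcy5 had 194.6 ± 24.7 CPM per kb, and Pde1b did not differ from it beyond their spread, being higher in 4 of 8 libraries. Rasd2 followed at 148.8 ± 17.5 CPM per kb. Pde10a, at 76.5 CPM per kb, was below Rasd2 in 8 of 8 libraries. Arpp21 at 62.9 CPM per kb and Gnal at 62.7 CPM per kb did not differ beyond their spread, and Rgs9 had 54.0 CPM per kb. Rasgrp2 was lowest at 12.2 ± 1.48 CPM per kb, over an exonic length of 12.4 kb that joins the exons of 24 annotated transcripts.

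Several of the 10 genes led their families in bulk. Adcy5 had the highest level per kb of exon of 8 adenylyl cyclase genes, with the next, Adcy2, at 17.7 CPM per kb. Pde1b and Pde10a ranked 1 and 2 of 12 phosphodiesterase genes, and Pde8b came next at 24.4 CPM per kb. Gng7 led 15 genes of G proteins and their chaperone Ric8b, ahead of Gnb2 at 116 CPM per kb, while Gnal ranked 7. Ppp1r1b led 13 genes of phosphatases and their inhibitors, ahead of Ppp3r1 at 156 CPM per kb, and Rasd2 led 10 genes of small G proteins and their regulators. Rgs9 ranked 2 of 7 RGS genes, below Rgs4 at 82.1 CPM per kb. Arpp21 ranked 7 of its 13 and Rasgrp2 8 of its 10.

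In sorted nuclei the order was different. Counts there followed the gene body, so levels were taken per kb of gene body, as means over 35 libraries. Rgs9 had 4.31 ± 1.45 CPM per kb (SD), Pde1b 4.27 ± 1.83 CPM per kb, Ppp1r1b 3.69 ± 2.05 CPM per kb and Rasd2 2.96 ± 1.39 CPM per kb. No neighbours in the order from Rgs9 down to Pde10a differed beyond 1 SD. Adcy5 had 2.69, Arpp21 2.38, Gnal 2.30 and Pde10a 1.96 CPM per kb of gene body. Gng7 at 1.33 ± 0.406 CPM per kb and Rasgrp2 at 0.882 ± 0.266 CPM per kb came last, each below its upper neighbour in 35 of 35 libraries. Against an even background at each library's silent-gene density, Rasgrp2 stood 1.06 to 3.89 times as high and Gng7 1.62 to 5.88 times, while Rgs9 stood 4.2 to 19.2 times as high. In its lowest library Rasgrp2 was thus counted near that background. The 2 tables also differ in how the genes compare with each other. For every 1000 CPM of Pde10a, the bulk libraries held 995 to 1397 CPM of Ppp1r1b, and the sorted libraries held 19.1 to 70.4 CPM. Ppp1r1b spans 9.4 kb and Pde10a 461.3 kb. The tables were normalized separately and come from different RNA preparations, so this ratio was not tested between them.

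HSV-RXRa-GFP in bulk tissue left none of the 10 genes past the threshold (edgeR quasi-likelihood test, adjusted p under 0.05 over 18579 genes), against 3.7% of all genes tested. At an unadjusted p under 0.05 there were 5: Gng7, Arpp21, Adcy5, Gnal and Ppp1r1b, all lower with RXRa. Of all 18579 genes, 3990 were at that unadjusted p in either direction. DESeq2, run as an alternative, called 2 of the 10, Arpp21 (adjusted p = 0.00617) and Gng7 (adjusted p = 0.00920), both lower, beside 9.25% of the genes to which DESeq2 gave an adjusted p. The log2 difference was below 0 for 8 of the 10 genes, with a median of -0.15 beside -0.02 over all genes tested.

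Gng7 (chr10:80948624-81014945, minus strand) had 1115, 1149, 1032 and 1237 CPM with GFP and 966, 1002, 875 and 910 CPM with RXRa. All 4 RXRa libraries lay below all 4 GFP libraries. The log2 difference was -0.27 ± 0.073 (SE; edgeR adjusted p = 0.0753), or 0.828-fold. Arpp21 (chr9:112065091-112235938, minus strand) had 1136, 1205, 1114 and 1273 CPM with GFP and 982, 1029, 972 and 1052 CPM with RXRa. Its groups did not overlap either, and the log2 difference was -0.23 ± 0.063 (SE; edgeR adjusted p = 0.0799). Adcy5 (chr16:35154877-35305738, plus strand) had 1480, 1532, 1464 and 1618 CPM with GFP and 1312, 1487, 1164 and 1128 CPM with RXRa. For this cyclase gene, 1 RXRa library reached into the GFP range, and the edgeR adjusted p was 0.151 at a log2 difference of -0.26. Ppp1r1b (chr11:98348404-98357796, plus strand) had 1180, 1247, 1168 and 1262 CPM with GFP and 1127, 1158, 992.5 and 989 CPM with RXRa. Gng7, Arpp21, Ppp1r1b and Gnal were the 4 of 10 genes whose RXRa libraries lay wholly below the GFP libraries, and 6.54% of all genes tested did so.

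The other 5 genes overlapped between the bulk groups. Pde1b and Pde10a differed by log2 -0.14 and -0.12 (2 SE intervals -0.29 to 0.02 and -0.38 to 0.14). Rgs9, Rasd2 and Rasgrp2 differed by log2 -0.04, 0.04 and 0.00, with 2 SE intervals of -0.26 to 0.18, -0.19 to 0.26 and -0.23 to 0.24. Rgs9 had 300.3, 369, 365 and 366 CPM with GFP, and the library at 300.3 CPM, GFP 1, was also the lowest GFP library for Pde10a (845 CPM), Rasd2 (383 CPM) and Rasgrp2 (114 CPM). Slc17a7, a marker of cortical excitatory neurons, was at 5.72 CPM in GFP 1 and reached 579 CPM in another GFP library. The 5 cortical excitatory markers summed to 7.42 to 724 CPM with GFP and to 68.2 to 541 CPM with RXRa. The 5 oligodendrocyte markers summed to 4270 to 4806 CPM with GFP and 2583 to 4466 CPM with RXRa, and the 5 T and NK cell markers to 11.1 to 13.7 CPM with GFP and 24.2 to 64.5 CPM with RXRa. The 5 D1 projection neuron markers summed to 779 to 960 CPM with GFP and 740 to 845 CPM with RXRa. The 5 D2 projection neuron markers summed to 1641 to 1944 CPM with GFP and 1501 to 1673 CPM with RXRa. No marker of these lists was at 0 throughout either group. The part of these cell types in the bulk differences was not tested. In bulk tissue, fewer projection neurons and less of each RNA per neuron cannot be told apart.

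**Figure D1:**
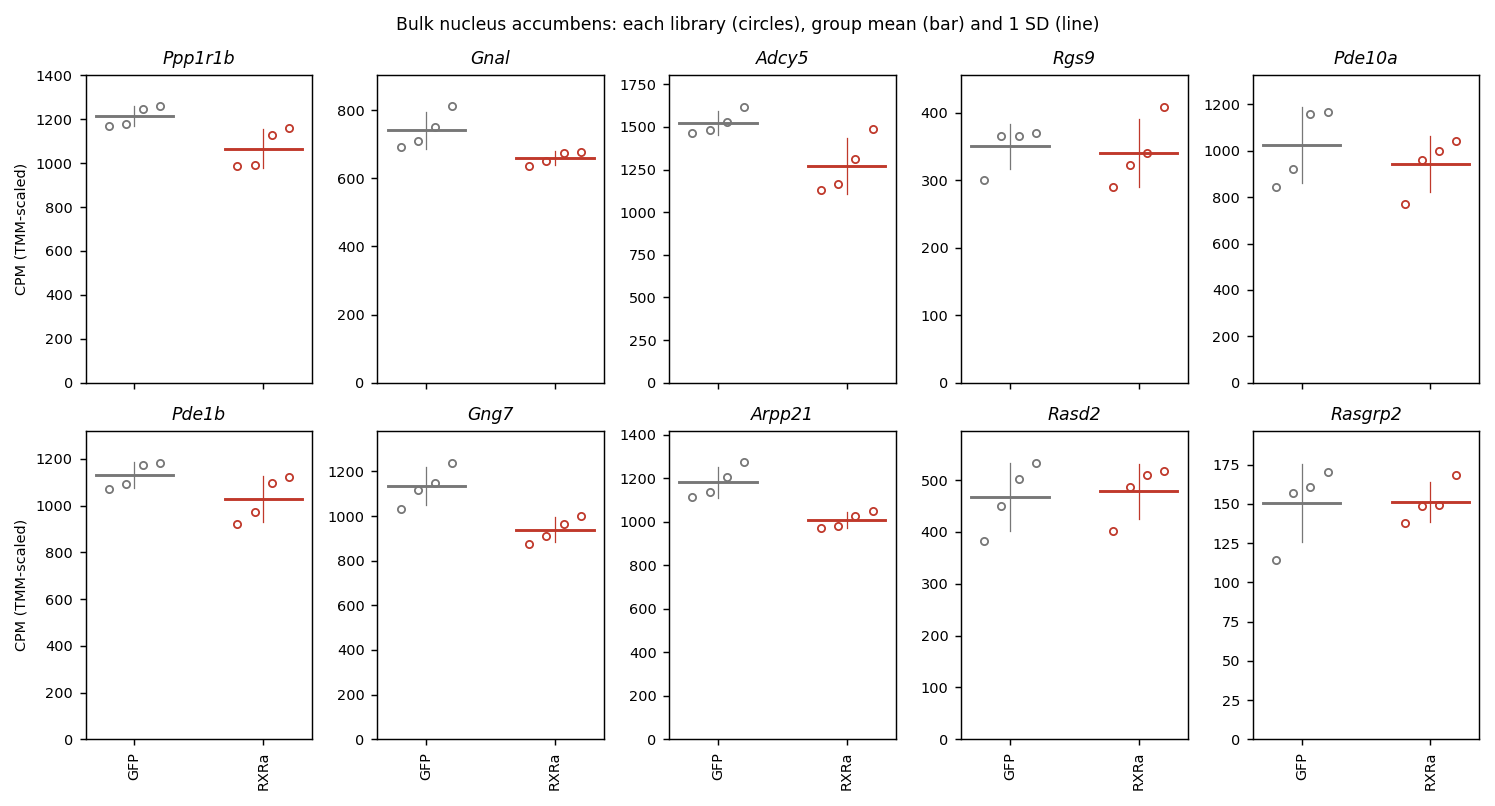
Levels of the 10 genes in bulk nucleus accumbens, in TMM-scaled CPM from 0 on each vertical axis, with 4 GFP (grey) and 4 RXRa (red) libraries as circles, the mean as a bar and 1 SD as a line. Ppp1r1b, Gnal, Gng7 and Arpp21 show no overlap between the groups, while Rgs9, Rasd2 and Rasgrp2 overlap widely.

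In D2 nuclei, 9 of the 10 genes were higher with RXRa than with EGFP when the counts were tested as deposited (edgeR quasi-likelihood test, adjusted p under 0.05 over 43902 genes, averaged over females and males). Of all genes tested, 14.9% were called higher. The 9 called genes were 1.43-fold to 1.66-fold higher, and the median log2 difference of the 10 was 0.58 beside -0.04 over all genes. Rasd2 did not pass, at 0.48 ± 0.22 (SE; edgeR adjusted p = 0.109). The 2 vectors' libraries overlapped within each sex for every gene except Gng7 in females. Silent-gene density was also lower with RXRa, and with it in the model none of the 10 genes was called.

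Gng7, the gamma subunit, rose with the smallest adjusted p. Among D2 females it had 71.7, 70.0, 69.8 and 64.0 CPM with EGFP and 92.6, 74.6, 150.4 and 151.2 CPM with RXRa. All 4 RXRa libraries stood above all 4 EGFP libraries, which held for 1 of the 10 genes among D2 females and for 2.33% of all genes tested. Among D2 males it had 68.5, 76.4, 89.5, 75.2 and 92.7 CPM with EGFP and 72.7, 108, 144 and 139 CPM with RXRa, where the RXRa library at 72.7 CPM lay inside the EGFP range. The log2 difference was 0.65 ± 0.14 (SE; edgeR adjusted p = 0.0111).

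Adcy5, the cyclase, had 289.7, 407, 287 and 283 CPM with EGFP and 522, 341, 762 and 535.5 CPM with RXRa in D2 females. In D2 males it had 249.9, 478, 405, 405 and 412 CPM with EGFP and 274, 461, 843 and 716 CPM with RXRa. Within each sex at least 1 RXRa library of Adcy5 lay inside the EGFP range. The log2 difference was 0.66 ± 0.18 (SE; edgeR adjusted p = 0.0139). Ppp1r1b, the DARPP-32 gene, had 22.9, 51.6, 27.8 and 19.2 CPM with EGFP and 65.0, 34.9, 64.4 and 33.9 CPM with RXRa in D2 females. In D2 males it had 17.5, 49.4, 35.05, 47.7 and 34.0 CPM with EGFP and 18.96, 53.6, 101.0 and 74.1 CPM with RXRa. It had the largest SE of the 9 called genes, and its log2 difference of 0.73 ± 0.27 (SE) passed at an edgeR adjusted p of 0.0479.

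The phosphodiesterase genes rose as well. Pde10a ran from 626 to 1023 CPM over the 9 D2 EGFP libraries and from 702 to 1702 CPM over the 8 D2 RXRa libraries, with a log2 difference of 0.55 ± 0.16 (SE; edgeR adjusted p = 0.0175). Pde1b ran from 60.3 to 147 CPM and from 71.3 to 269 CPM, with a log2 difference of 0.68 ± 0.21 (SE; edgeR adjusted p = 0.0242). Arpp21 rose by 0.59 ± 0.14, Rgs9 by 0.57 ± 0.18 and Gnal by 0.51 ± 0.16 on the log2 scale (SE; edgeR adjusted p = 0.0112, 0.0224 and 0.0220). Rasgrp2, at 9.54 to 16.6 CPM with EGFP and 11.4 to 29.7 CPM with RXRa, rose by 0.51 ± 0.15 (SE; edgeR adjusted p = 0.0185). Rasd2, the gene that was not called, ran from 18.9 to 45.4 CPM with EGFP and from 18.9 to 70.9 CPM with RXRa.

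The 9 calls rested on a few libraries. Without D2 female RXRa 4, the library with the highest Gnal, Adcy5, Rgs9, Pde10a and Arpp21 of its group and the lowest silent-gene density, none of the 10 genes was called, as was none of all genes (0%). Without D2 male RXRa 5 there were 2 of the 10 beside 3.65% of all genes, and without D2 male RXRa 3 there were 3 beside 13.7%. Fitted on the D2 libraries alone, 5 of the 10 were called, beside 6.42% of all genes in that fit. Within each sex none of the 10 was called by edgeR, as was none of all genes (0%), with 8 of the 10 at an unadjusted p under 0.05 in females and 6 in males. Of all 43902 genes, 11079 in females and 8657 in males were at that unadjusted p. DESeq2 called 6 of the 10 in D2 females and 0 in D2 males, beside 21% and 0.062% of the genes to which it gave an adjusted p. All 10 log2 differences were above 0 in each sex in the main fit, with medians of 0.68 in females and 0.53 in males. Under alternative settings, 5 of 170 estimates in females and 7 of 180 in males had the other sign. The difference of the vector effect between the sexes in D2 was tested as an interaction, and 0 of the 10 genes passed by edgeR or DESeq2 (0 at an unadjusted p under 0.05), as did 0% of all genes.

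**Figure D2:**
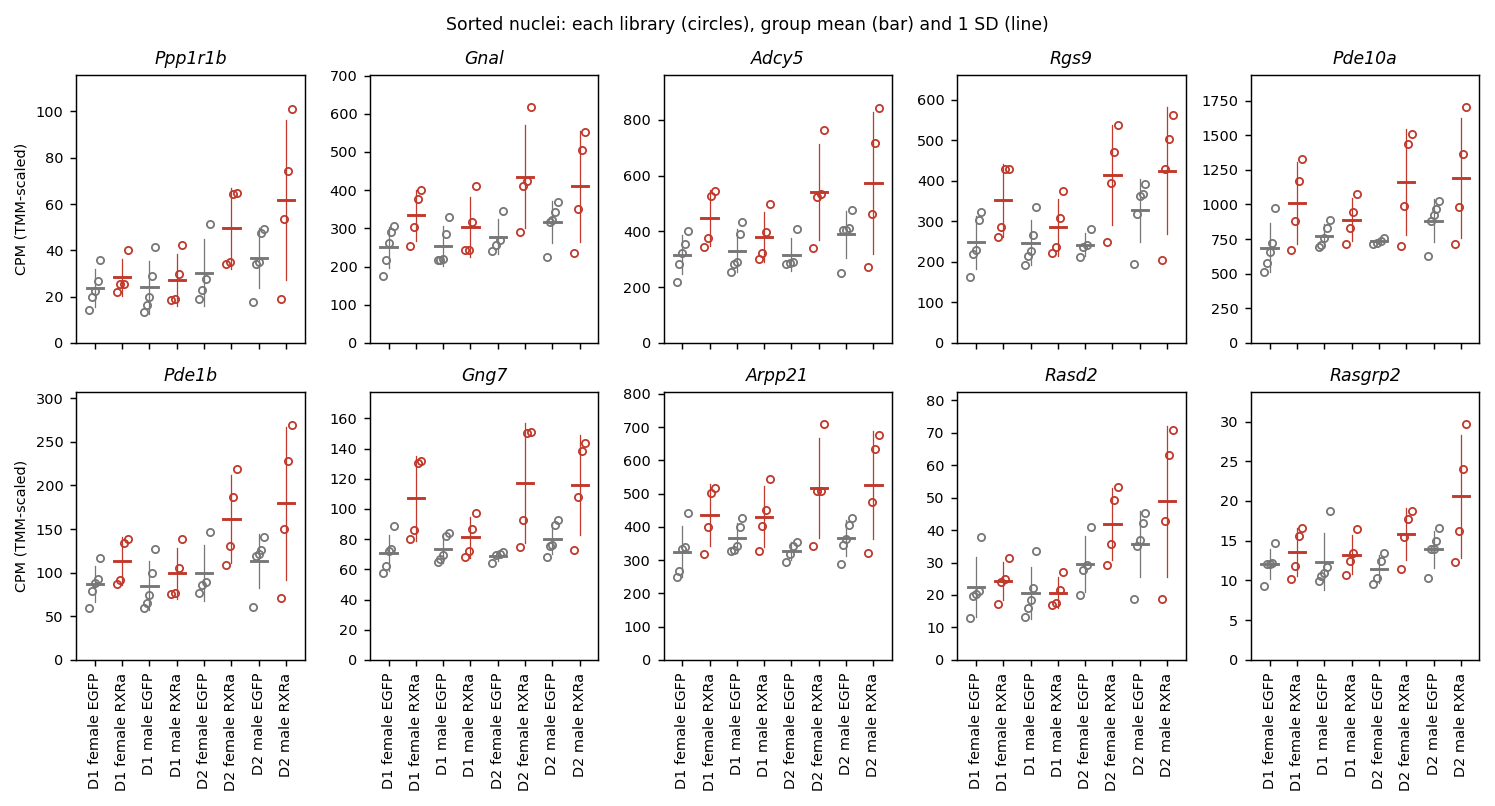
Levels of the 10 genes in sorted nuclei, in TMM-scaled CPM from 0 on each vertical axis, for the 8 groups of population, sex and vector, with libraries as circles (EGFP grey, RXRa red), the mean as a bar and 1 SD as a line. The RXRa libraries spread more widely than the EGFP libraries in D2, where Adcy5 ran from 274 to 843 CPM with RXRa and from 249.9 to 478 CPM with EGFP.

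Silent-gene density was 0.551 ± 0.0258 CPM per kb in the D2 EGFP libraries (SD, n = 9) and 0.432 ± 0.0890 CPM per kb in the D2 RXRa libraries (SD, n = 8). The D1 libraries had 0.529 ± 0.0466 CPM per kb with EGFP (SD, n = 10) and 0.466 ± 0.0701 CPM per kb with RXRa (SD, n = 8). D2 female RXRa 4 and D2 male RXRa 5, at 0.303 and 0.333 CPM per kb, had 762 and 716 CPM of Adcy5. D2 female RXRa 5 and D2 male RXRa 3, at 0.406 and 0.409 CPM per kb, had 535.5 and 843 CPM. D2 female RXRa 2 and D2 male RXRa 2, at 0.463 and 0.447 CPM per kb, had 522 and 461 CPM, the latter inside the EGFP range of its sex. D2 female RXRa 3 and D2 male RXRa 1, at 0.550 and 0.544 CPM per kb, had 341 and 274 CPM of Adcy5, both also inside the EGFP range of their sex. With density as a covariate, 0 of the 10 genes were called in D2 by edgeR (0 at an unadjusted p under 0.05), and 0% of all genes were. The log2 differences then ran from -0.16 to 0.10 with a median of -0.03, and 7 of the 10 were below 0.

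Subtracting the even background from each library, an alternative chosen after seeing the data and carrying no test, gave a median log2 ratio of 0.05 in D2, with a range of -0.16 to 0.60. Adcy5 had 877.5 ± 228 CPM with EGFP (SD, n = 9) and 909.7 ± 194 CPM with RXRa (SD, n = 8) after subtraction, and Pde10a 1813 ± 357 and 1809 ± 387 CPM. Gnal, Rgs9 and Rasd2 were then lower with RXRa, at log2 ratios of -0.06, -0.07 and -0.16. Rasgrp2 and Gng7 had the largest log2 ratios after subtraction, 0.60 and 0.37, whereas Ppp1r1b, Pde1b and Adcy5 had the largest differences before it. Gng7 had 126.8 ± 25.4 CPM with EGFP and 160.5 ± 36.8 CPM with RXRa after subtraction, and Rasgrp2 13.8 ± 7.28 and 19.8 ± 8.76 CPM. Both are the genes nearest to the background per kb of gene body, where the subtraction takes away the largest share.

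Markers of D2 projection neurons also had higher medians with RXRa in D2 nuclei. The 5 markers Drd2, Adora2a, Penk, Gpr6 and Sp9 had summed levels with medians of 928 and 1863 CPM in D2 females and 1327 and 1942 CPM in D2 males, with EGFP first. The 5 D1 projection neuron markers had medians of 136 and 151 CPM in D2 females and 136.5 and 160 CPM in D2 males. Astrocyte markers summed to 130 to 189 CPM in the D2 male EGFP libraries and 123 to 148 CPM in the D2 male RXRa libraries, and microglial markers to 102 to 127 and 117 to 130 CPM. In D2 females astrocyte markers summed to 133 to 148 CPM with EGFP and 110 to 134 CPM with RXRa. Microglial markers there summed to 117 to 129 and 112 to 123 CPM. No listed marker was at 0 throughout any of these groups, but sorted nuclei also gave counts over genes with no count in bulk. These sums include that background, and its part in them was not measured. A count above 0 or a flat sum therefore does not show what a marker gene did. The part of the share of projection neuron nuclei in the D2 result was not tested. Silent-gene density is scaled by library totals and differed between the vectors in D2. The covariate fit above therefore cannot tell vector, density and that share apart.

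**Figure D3:**
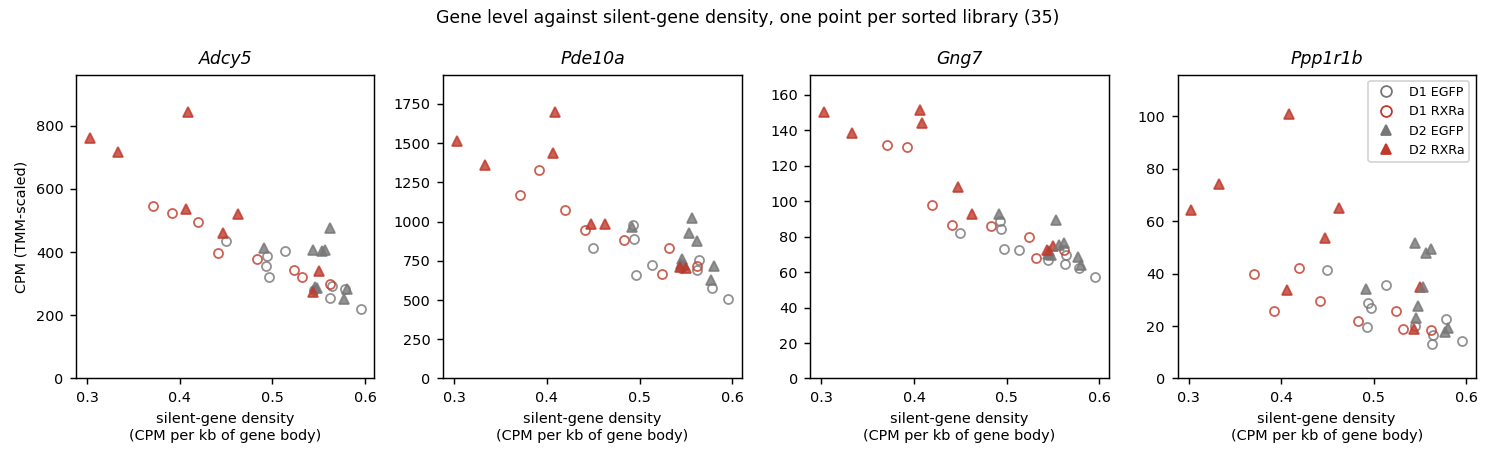
TMM-scaled CPM of Adcy5, Pde10a, Gng7 and Ppp1r1b (vertical axes, from 0) against silent-gene density in CPM per kb of gene body by library total (horizontal axes), with 1 point for each of the 35 sorted libraries. D2 RXRa libraries (filled red triangles) spread from 0.303 to 0.550 CPM per kb, and the D2 EGFP libraries (filled grey triangles) stay between 0.491 and 0.580.

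**Figure D4:**
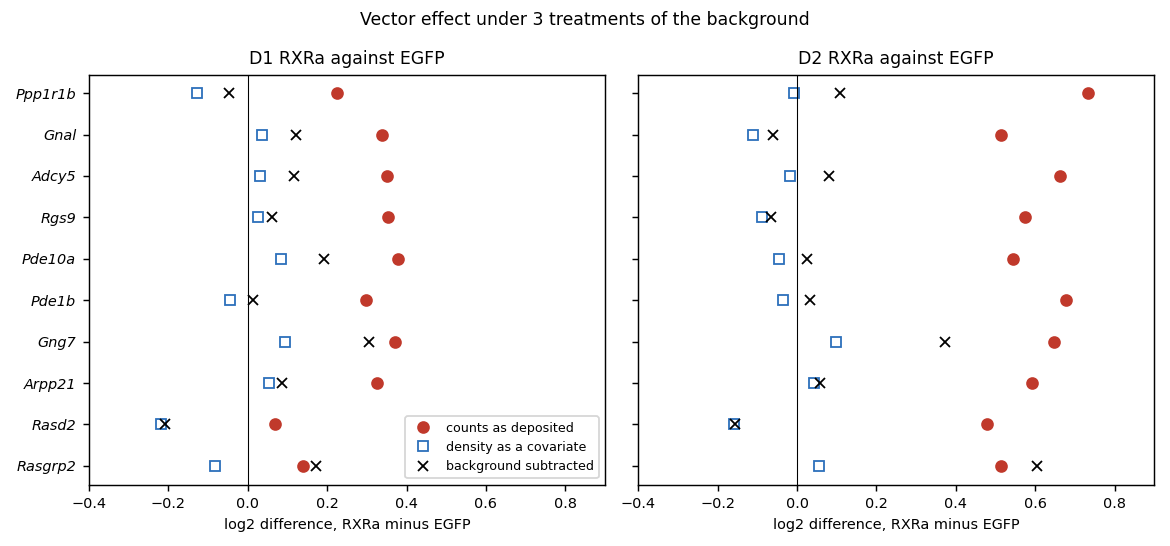
Log2 difference between RXRa and EGFP for each gene in D1 (left) and D2 (right) nuclei, from the counts as deposited (red circles), with silent-gene density as a covariate (blue squares) and from background-subtracted group means (crosses). In D2 the median falls from 0.58 to -0.03 with the covariate and to 0.05 after subtraction, with Rasgrp2 and Gng7 the crosses farthest to the right.

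In D1 nuclei none of the 10 genes passed by edgeR or by DESeq2 (6 at an unadjusted p under 0.05 by each), nor did any of the 43902 genes (0%). By edgeR 3522 of the 43902 genes were at that unadjusted p. All 10 log2 differences were above 0 in this fit, with a median of 0.33 beside -0.01 over all genes. Rasd2 was at -0.00017 when scaled by library totals, and between -0.0084 and -0.00024 without D1 female EGFP 4, D1 female RXRa 1 or D1 male RXRa 1. Pde10a had the largest, 0.38 ± 0.15 (SE; edgeR adjusted p = 0.583), and Gng7 had 0.37 ± 0.13 (SE; edgeR adjusted p = 0.582). Gng7 ran from 57.5 to 88.6 CPM with EGFP and from 68.2 to 132 CPM with RXRa, and Pde10a from 509 to 976 CPM and from 668.5 to 1328 CPM, so both overlapped. Rasd2 was at 21.5 ± 8.18 CPM with EGFP (SD, n = 10) and 22.5 ± 5.24 CPM with RXRa (SD, n = 8), and its 2 SE interval was -0.37 to 0.50 on the log2 scale. With silent-gene density as a covariate the D1 median was 0.03 and 4 of the 10 were below 0, Ppp1r1b, Pde1b, Rasd2 and Rasgrp2. After background subtraction the median was 0.10, with Gng7 highest at 0.31 and Ppp1r1b (-0.05) and Rasd2 (-0.21) below 0. Split by sex, none of the 10 was called by edgeR or DESeq2 in D1 females (5 at an unadjusted p under 0.05 by edgeR) or D1 males (0), as was 0% of all genes by edgeR. Of all 43902 genes, 2761 in D1 females and 1326 in D1 males were at that unadjusted p. The interaction of vector and sex in D1 gave 0 of the 10 by edgeR and DESeq2 (0 at an unadjusted p under 0.05) and 0% of all genes.

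The vector effect was not shown to differ between D2 and D1. As an interaction, 0 of the 10 genes passed by edgeR or DESeq2 (0 at an unadjusted p under 0.05), and 0% of all genes did. All 10 interaction estimates were above 0 in this fit. Of 430 estimates under alternative settings, 5 had the other sign. Ppp1r1b had the largest at log2 0.51 (2 SE interval -0.25 to 1.26), and Rasgrp2 the smallest adjusted p (edgeR adjusted p = 0.602, log2 0.37, 2 SE interval -0.04 to 0.79). Pde10a had the smallest estimate, 0.17 (2 SE interval -0.27 to 0.60).

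**Figure D5:**
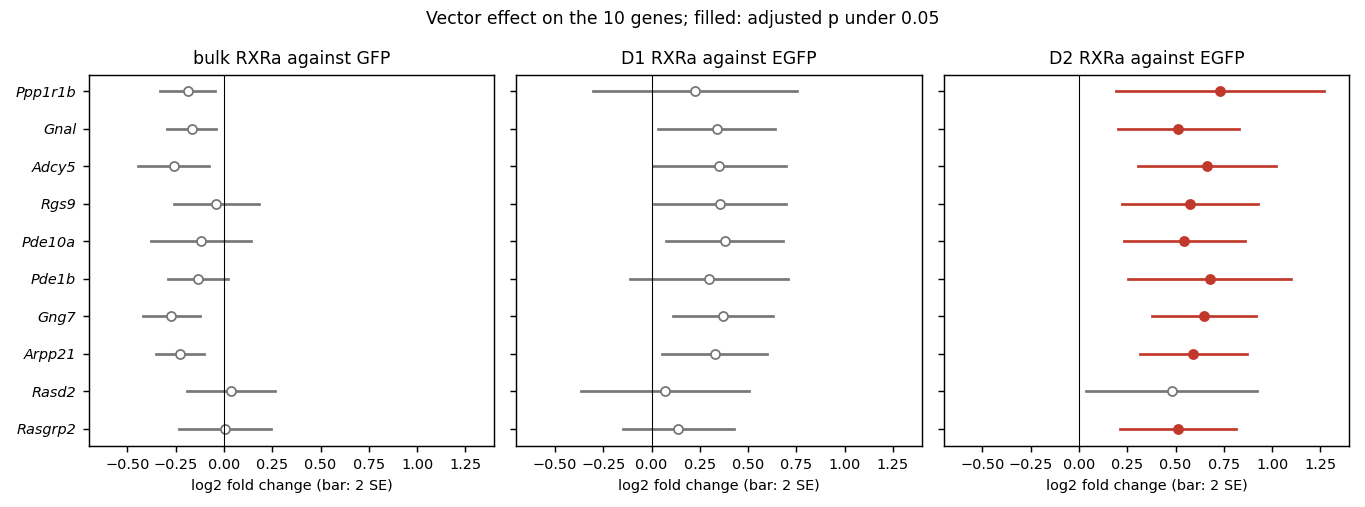
Log2 fold change with RXRa for each gene in bulk tissue (left), D1 nuclei (middle) and D2 nuclei (right), with bars of 2 SE and filled red points where the edgeR adjusted p was under 0.05. In bulk 8 of the 10 genes lie below 0, in D1 and D2 all 10 lie above 0 in the fit plotted, which has no density covariate (with it 4 lie below 0 in D1 and 7 in D2; Rasd2 in D1 is also at -0.00017 when scaled by library totals), and 9 of the 10 pass in D2 alone of these 3 comparisons.

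D2 nuclei were also set against D1 nuclei. Under EGFP all 10 log2 differences were above 0 in the main fit, and 9 of 270 estimates under alternative settings had the other sign. None of the 10 passed by edgeR or DESeq2 (1 at an unadjusted p under 0.05 by each), beside 0.121% of all genes. At that unadjusted p, 4618 of all 43902 genes passed by edgeR. Arpp21, Gng7 and Rasgrp2 had the smallest log2 differences, 0.00, 0.05 and 0.06, with 2 SE intervals of -0.26 to 0.27, -0.21 to 0.30 and -0.23 to 0.34. Rasd2 and Ppp1r1b had the largest. Rasd2, the Rhes gene, was at 32.9 ± 9.55 CPM in D2 (SD, n = 9) and 21.5 ± 8.18 CPM in D1 (SD, n = 10), a log2 difference of 0.60 ± 0.21 (SE; edgeR adjusted p = 0.303). Ppp1r1b was at 33.9 ± 13.2 CPM in D2 and 23.9 ± 9.31 CPM in D1, a log2 difference of 0.49 ± 0.26 (SE; edgeR adjusted p = 0.504). Both ranges overlapped between the populations. With silent-gene density as a covariate, Gnal (0.34, edgeR adjusted p = 0.0272) and Rasd2 (0.72, edgeR adjusted p = 0.0426) were called higher in D2, beside 0.462% of all genes called in either direction.

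Under RXRa, 3 of the 10 genes were higher in D2 than in D1 by edgeR, beside 6.85% of all genes called higher. Rasd2 was at 45.4 ± 17.3 CPM in D2 and 22.5 ± 5.24 CPM in D1 (SD, n = 8 each), a log2 difference of 1.01 ± 0.23 (SE; edgeR adjusted p = 0.0236). Ppp1r1b was at 55.7 ± 26.2 CPM in D2 and 27.8 ± 9.04 CPM in D1, a log2 difference of 1.00 ± 0.28 (SE; edgeR adjusted p = 0.0340), and Pde1b differed by 0.69 ± 0.22 (SE; edgeR adjusted p = 0.0455). All 3 genes overlapped between the populations. With silent-gene density as a covariate only Rasd2 of the 3 was called, at 0.78 (edgeR adjusted p = 0.0255), beside 2.9% of all genes called in either direction. Left out one at a time, 7 libraries (D1 female RXRa 4, D2 female RXRa 2, D2 female RXRa 4, D1 male RXRa 2, D1 male RXRa 3, D2 male RXRa 3 and D2 male RXRa 5) each left none of the 10 called, D1 female RXRa 2, D1 female RXRa 5 and D1 male RXRa 5 each left 1, and without D1 male RXRa 1 there were 5, without D2 female RXRa 3 there were 7 and without D2 male RXRa 1 there were 8. Over the libraries left out, 118 to 9889 of all genes were called. The comparisons of the populations share these libraries with the vector comparisons above.

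Between female and male EGFP libraries of both populations, 0 of the 10 were called by edgeR or DESeq2 (0 at an unadjusted p under 0.05), beside 4.43% of all genes. All 10 estimates were below 0 in the main fit, from -0.22 for Pde10a (2 SE interval -0.52 to 0.08) to -0.06 for Rasd2 (2 SE interval -0.49 to 0.36). Of 270 estimates under alternative settings, 7 had the other sign.

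The rest of the pathway was followed through 68 further genes of receptors, G proteins, cyclases, kinases, phosphodiesterases, phosphatases, RGS proteins and small G proteins, all of which passed the count filter. In bulk, 4 of the 68 fell with RXRa and none rose (edgeR), beside 0.689% of all genes called lower. Of the 687 genes called in bulk, 559 were higher and 128 lower. Of the 68 genes, 54 had estimates below 0. Pde1c (-0.51 ± 0.076, SE; edgeR adjusted p = 0.0130) and Pde1a (-0.41 ± 0.077, SE; edgeR adjusted p = 0.0250), which encode calcium-dependent phosphodiesterases like Pde1b, fell most. Gnai1, an inhibitory G protein alpha subunit, fell by 0.30 on the log2 scale (edgeR adjusted p = 0.0132). The remaining one, Prkacb, a catalytic subunit of protein kinase A, was outside the rule for named genes and is named after its value was seen (-0.28, edgeR adjusted p = 0.0342). The median of the 68 was -0.10 on the log2 scale, beside -0.15 for the 10 genes.

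In D2 nuclei, 44 of the 68 rose with RXRa and 2 fell (edgeR), beside 14.9% of all genes called higher and 7.14% called lower. The median log2 difference was 0.41 beside 0.58 for the 10 genes. These calls came from the counts as deposited. With silent-gene density as a covariate none of the 68 was called, as was none of all genes (0%). The same held without D2 female RXRa 4 (0%). The rises covered 12 of 13 G protein genes, 9 of 11 phosphatases and inhibitors, 6 of 8 kinase genes, 6 of 10 phosphodiesterase genes and 3 of 5 receptors, and 1 of 7 adenylyl cyclases, Adcy9 (0.44, edgeR adjusted p = 0.0112; named after its value was seen). Drd1 (0.89 ± 0.25, SE; edgeR adjusted p = 0.0173), Ppp1r2, an inhibitor of protein phosphatase 1 (0.84 ± 0.17, SE; edgeR adjusted p = 0.0111), and Gnb2, a G protein beta subunit (0.79 ± 0.23, SE; edgeR adjusted p = 0.0179), rose most. Drd1, the marker of the other population, was at 6.48 to 16.5 CPM in D2 EGFP libraries and 9.55 to 38.6 CPM in D2 RXRa libraries. The 2 genes that fell were Adcy8 (-0.19 ± 0.057, SE; edgeR adjusted p = 0.0214) and Rasgrp3 (-0.18 ± 0.054, SE; edgeR adjusted p = 0.0201). Adcy8 was at 0.452 and Rasgrp3 at 0.652 CPM per kb of gene body, near the median silent-gene density of 0.524 CPM per kb, while Adcy5 was at 2.69 CPM per kb. In D1 nuclei 0 of the 68 were called by edgeR, with 15 at an unadjusted p under 0.05, beside 3522 of all 43902 genes.

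Between the populations under EGFP, 2 of the 68 genes were higher in D2, Drd2 (3.47 ± 0.16, SE; edgeR adjusted p = 1.75e-17) and the adenosine receptor gene Adora2a (1.81 ± 0.19, SE; edgeR adjusted p = 1.30e-07), and 2 were lower, Drd1 (-2.03 ± 0.24, SE; edgeR adjusted p = 2.85e-06) and Drd3 (-0.29 ± 0.060, SE; edgeR adjusted p = 0.0302). Under EGFP 0.121% of all genes were called in either direction. Under RXRa 22 of the 68 were higher and 4 lower, beside 6.85% of all genes called higher and 1.53% called lower. Arpp19, a phosphoprotein that inhibits protein phosphatase 2A, was called higher in D2 at 1.12 ± 0.22 (SE; edgeR adjusted p = 0.00909), and Adcy2 lower at -0.21 ± 0.048 (SE; edgeR adjusted p = 0.0257). The other 3 lower genes were Drd1 (-1.40), Drd3 (-0.44) and Gng2 (-0.15, edgeR adjusted p = 0.0346), the last named after its value was seen.

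The 10 genes varied together over the 35 sorted libraries. As a description, Pearson's r between the log2 level of each gene and the mean standardized level of the other 9 ran from 0.849 for Rasd2 to 0.986 for Adcy5. Points share their library and its silent-gene density, so no p is given. Of 8093 other protein-coding genes with a mean of at least 10 CPM in both tables, the 5 most like the mean of the 10 over the 35 libraries were Camk2b (r = 0.987), a kinase subunit, Ptpn5 (r = 0.977), the phosphatase STEP, Baiap2 (r = 0.976), a synaptic scaffold, Ewsr1 (r = 0.975), an RNA-binding protein, and Bcl11b (r = 0.975), a transcription factor of projection neurons. They were picked by likeness over these same libraries, so their D2 differences are tied to that choice and are no separate result. In D2 the log2 differences with RXRa were 0.63 for Camk2b, 0.54 for Ptpn5, 0.62 for Baiap2, 0.61 for Ewsr1 and 0.43 for Bcl11b. In bulk Bcl11b was lower at -0.31 ± 0.065 (SE; edgeR adjusted p = 0.0359). The others were not called in bulk, with -0.18 for Ptpn5, -0.13 for Camk2b, -0.08 for Baiap2 and 0.01 for Ewsr1.

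Several of the 10 genes share their locus with other annotated genes, and the strand setting of the counting is not given in the sources used here. In the sorted table Ppp1r1b, at a mean of 34.6 CPM, overlaps 1700003D09Rik on the opposite strand, which had 19.8 CPM. Arpp21, at 406.9 CPM, overlaps 2900079G21Rik on the opposite strand, which had 74.1 CPM. Rasgrp2, at 14.0 CPM, overlaps Gm14965 on the opposite strand, which had 4.8 CPM. Gnal, at 318 CPM, overlaps Mppe1 on the opposite strand, which had 34.1 CPM. Reads of such pairs cannot be told apart without the strand. In bulk 1700003D09Rik and 2900079G21Rik had 7.02 and 5.99 CPM beside 1140 CPM for Ppp1r1b and 1096 CPM for Arpp21. Gm14965 had 0.0766 CPM there beside 151 CPM for Rasgrp2, and Mppe1 23.8 CPM beside 701 CPM for Gnal. Rgs9, Pde1b and Rasd2 overlap no other annotated gene.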

How the data were processed

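Both tables hold read counts per gene, whole numbers as the authors deposited them, on GRCm38 per the submitters' processing notes, which also name FastQC, Trimmomatic, HISAT2, Picard, featureCounts and Subread without roles or versions. Per the labels' protocols, bulk RNA was selected for poly(A) and sorted nuclei gave ribosome-depleted total RNA, read as 2 × 150 bp pairs. Annotation release, strand setting and treatment of introns are not given in the sources used here.

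Neither the totals nor the tests include the 2 plasmid rows. Gene names and lengths came from GENCODE M21, which matched 55394 of 55487 identifiers. Counts were filtered with filterByExpr, scaled by TMM and tested by edgeR 4.0.16 (quasi-likelihood, R 4.3.3), with p-values adjusted over all genes. The sorted fit used all 8 groups. The bulk and sorted tables were fitted separately. SE is the log2 difference over the square root of F. Alternatives used limma 3.58.1 and DESeq2 1.42.0. The test was checked on simulated counts. These held no shift in silent-gene density between libraries, so the check does not cover such a shift. 1 library whose labels disagree about its vector entered no comparison, and 0 columns lacked a sample. Of the other pathway genes, those named were, for each comparison, up to 3 rises and 3 falls of largest size among called genes with a mean of at least 1 CPM. The 10 genes and the lists were chosen with earlier results of these data known. A summed list of general projection neuron markers is not reported here.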

Additional observations from a re-analysis of the deposited data

Results flagged for a closer look

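Of 100 combinations of gene and group, 4 held a library set apart from the others of its group, where chance gives about 1 in 20. Adcy5 was at 407 CPM in D2 female EGFP 3, with the others of the group at 283 to 289.7 CPM. Rgs9 was at 300.3 CPM in bulk GFP 1, with the others at 365 to 369 CPM. Pde1b was at 60.3 CPM in D2 male EGFP 1, with the others at 119 to 141 CPM. Rasgrp2 was at 18.7 CPM in D1 male EGFP 2, with the others at 9.90 to 11.7 CPM. The cause was not tested.

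1 D2 female library carries a title of the RXRa series and an EGFP vector label, and it was left out of every comparison. Its levels are given in CPM by library total, with the ranges of the D2 female EGFP and then RXRa libraries on the same scale for 3 genes. Adcy5 was at 390.5 CPM (291 to 417.5 CPM, then 349.8 to 598.5 CPM). Gng7 was at 97.4 CPM (65.8 to 77.2 CPM, then 76.6 to 141 CPM). Ppp1r1b was at 38.3 CPM (19.7 to 52.8 CPM, then 31.6 to 61.4 CPM). The remaining levels were 338 CPM for Gnal, 331 CPM for Rgs9, 779.6 CPM for Pde10a, 115 CPM for Pde1b, 369.6 CPM for Arpp21, 33.6 CPM for Rasd2 and 13.6 CPM for Rasgrp2.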

How the results depend on the processing

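With silent-gene density as a covariate, 0 of the 10 genes were called in D2 instead of 9, and 7 log2 differences turned to -0.0081 (Ppp1r1b), -0.11 (Gnal), -0.017 (Adcy5), -0.089 (Rgs9), -0.044 (Pde10a), -0.036 (Pde1b) and -0.16 (Rasd2, not called in either fit). After background subtraction, chosen after seeing the data, Gnal, Rgs9 and Rasd2 in D2 turned to -0.060, -0.066 and -0.155. The covariate gave 2 calls for D2 against D1 under EGFP instead of 0, and 1 under RXRa instead of 3. limma voom also gave 1 there. DESeq2 gave 2 calls in bulk and 6 in D2 females, both instead of 0. The fit on D2 libraries alone gave 5. Leaving out 1 library at a time gave 0 to 10 calls in D2, 0 to 6 in D2 females (6 without D2 female RXRa 3), 0 to 6 in D2 males (6 without D2 male RXRa 1) and 0 to 8 for D2 against D1 under RXRa. It gave 0 throughout in the other 9 comparisons. The cause of these shifts was not tested. Among alternatives for the fold change of single genes, 2886 kept their call and direction, 82 lost a call, 37 gained one and 8 called ones reversed. The other 137 changed sign with no call in either fit or, after subtraction, moved by more than 1 SE.

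Replicate numbers recur across groups. Same-numbered libraries deviated together in some pairs and in opposite directions in others (correlations of -0.91 to 0.87). The numbers were not taken to pair the samples, though these correlations do not settle whether they do. With the replicate block, 5 of the 10 genes were called in D2 and 0 for D2 against D1 under RXRa.

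Over all genes, counts moved by over 1.5 times as follows. In bulk 687 became 1619 with DESeq2, 0 with the block and 9 to 1016 without 1 library. In D2 9683 became 6027 with the block, 0 with the covariate, 2543 on D2 alone and 0 to 14763 without 1 library. The counts of 0 in D2 females and males became 3672 and 23 with DESeq2 and reached 6701 and 5985 without 1 library, and the latter was 1 with voom and with the block. The counts of 0 in D1 females and for the sex difference of the vector effect in D1 became 4 and 2 with DESeq2. D2 against D1 went from 53 to 90 (DESeq2) and 203 (covariate) under EGFP. Under RXRa it went from 3677 to 1119 (library totals), 5722 (DESeq2), 862 (voom), 136 (block), 1274 (covariate) and 118 to 9889 (without 1 library). Female against male went from 1947 to 1024 (at least 1 CPM) and 1170 (block). Scaling by library totals moved the D2 median of all genes from -0.04 to -0.20 and that of the 10 genes from 0.58 to 0.39. Rasgrp2, at 1.06 times the even background in its lowest library, is the gene whose level that background limits most.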
